A study of Drosophila melanogaster with 2 samples.

Results

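Seminal fluid and accessory gland protein genes were compared between whole control flies and whole heterozygous *taf1*-mutant flies. The members were the rows of the *Drosophila melanogaster* gene table whose symbol begins with Acp or Sfp followed by a digit, together with *SP*, *Dup99B* and *Est-6*. *Acp1* and *Acp65Aa*, which encode cuticle proteins, were left out. The rule gave 47 members of 17559 genes, of which 17 carry Acp names, 27 carry Sfp names and 3 carry other names. Of these, 33 had reads and 14 were at 0 in both libraries. RNA of 10 pooled flies per genotype was sequenced as 1 library each, in a preliminary search for pathways affected by lower levels of Taf1, the largest subunit of the general transcription factor TFIID. The control flies were w1118. The mutant flies came from crossing a stock with the *taf1* allele 1, the marker alleles red1 and e1 on the same chromosome and the balancer TM3, Sb1 to w1118. They were tested as heterozygotes for this allele in w1118 and are labelled Taf1_1 heterozygous mutant. The labels and the study's methods name neither sex nor age of the flies. With 1 library per genotype no replicate check exists and no p-value was computed, so each value compares these libraries and not the genotypes.

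Seminal fluid proteins are made mainly by the paired accessory glands of the male, with further contributions from the ejaculatory duct and the ejaculatory bulb, and pass to the female with the sperm. In the mated female they raise egg laying, lower the readiness to mate again, and help sperm to enter storage and to be used. Acp stands for accessory gland protein, and Sfp names were given to genes of proteins found in seminal fluid. Best known is sex peptide, encoded by *SP*, which acts through the sex peptide receptor of the female and is held on stored sperm with the help of a network of other seminal proteins.

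The libraries held 16753242 reads (control) and 32364756 reads (mutant). Values are given as reads and as CPM (counts per 1000000 reads). For CPM the libraries were scaled with TMM (trimmed mean of M-values), which counts the mutant library as 1.61 control libraries. A ratio is mutant over control, followed by its exact 95% interval, which covers counting error only. A gene was measured if the libraries together gave it 20 reads or more. A call as higher or lower needed a ratio of 1.5-fold or more and an interval that did not hold equality. *Taf1* (FBgn0010355) had 1352 control reads and 1564 mutant reads, a ratio of 0.72 (0.67 to 0.77), and was not called. RNA of the male reproductive tract was plentiful, since 29 testis genes held 228702 and 420450 reads in control and mutant. The 15 female genes, among them the yolk protein genes and eggshell genes, held 398 and 608 reads.

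The members followed no common direction. Of the 33 measured members, 9 were higher (27.3%, against 12.8% of all 11606 measured genes), 4 were lower (12.1%, against 6.16%) and 20 were neither. Members are short, with a median transcript length of 468 nt against 1704 nt over all measured genes. Other protein-coding genes of 300 to 400 nt and of 400 to 700 nt were higher in 38.6% and 29.3% of cases. The share of higher members over all lengths was thus not above that of genes of such lengths. Within 400 to 700 nt it was below, with 9.09% of 11 members higher. Other genes of 300 to 400 nt and of 400 to 700 nt were lower in 6.82% and 4.48% of cases. Of the 8 and 11 members of these lengths, 12.5% and 9.09% were lower, which is 1 member each. The median log2 ratio of the members was -0.13, beside 0.004 over all measured genes. Sex peptide, the small accessory gland gene *Acp98AB* and 7 Sfp genes were higher, whereas the ovulin gene *Acp26Aa*, the sex peptide relative *Dup99B*, *Acp53Ea* and *Acp54A1* were lower. The interval lay wholly above equality for 11 members, wholly below it for 17 and included it for 5. Summed over all members, 156887 control reads and 224969 mutant reads gave 9365 CPM (95% Poisson interval 9318 to 9411) and 8346 CPM (8312 to 8381), a ratio of 0.891 (0.886 to 0.897). CPM is relative to the other RNA of the fly. A lower sum in a whole-fly library therefore cannot tell apart fewer gland cells, less RNA per cell and a larger share of other RNA.

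**Figure D1:**
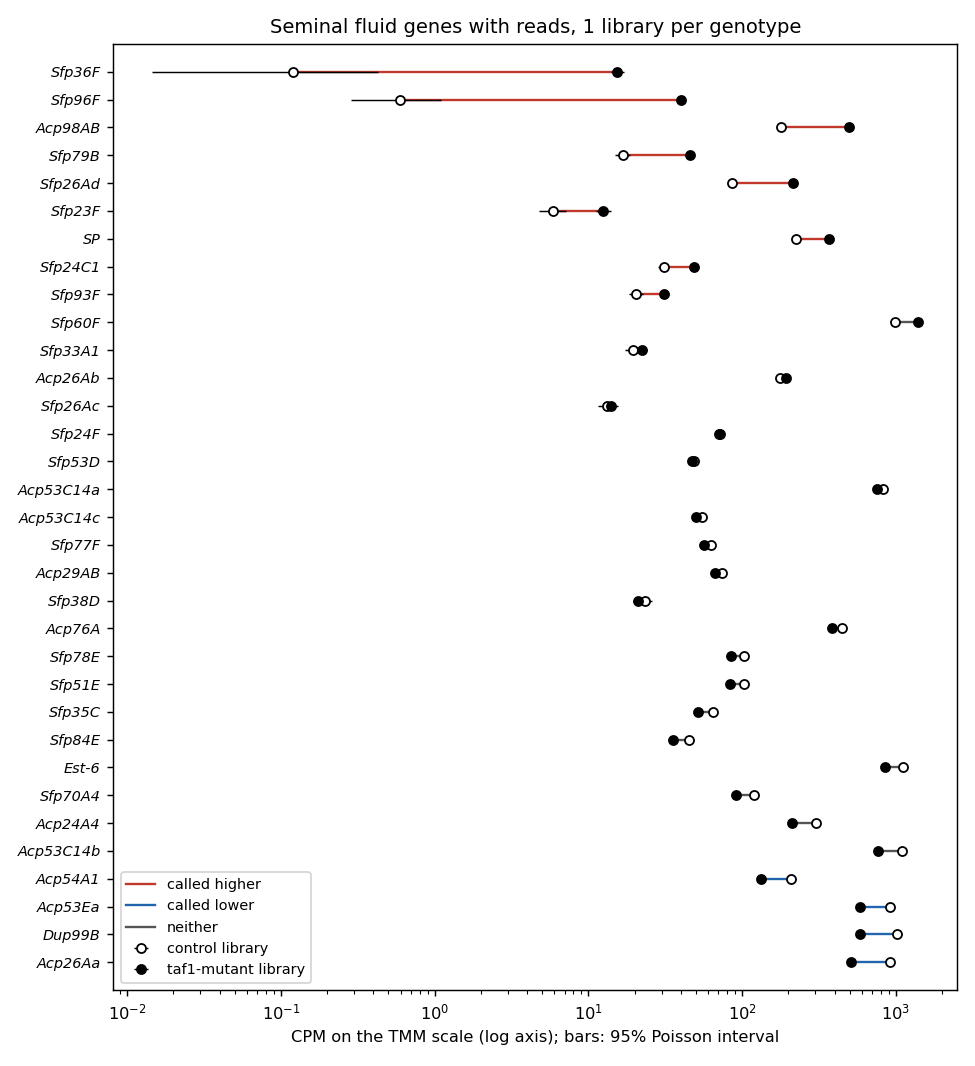
CPM on the TMM scale (log axis) of the 33 seminal fluid genes with reads in the control library (open circles) and the *taf1*-mutant library (filled circles), 1 library each, ordered by ratio from high at the top to low at the bottom. Thin bars are 95% Poisson intervals and line colour shows the call. Most pairs of circles nearly touch, 9 members are called higher, 4 are called lower, and only *Sfp36F* and *Sfp96F* lie below 1 CPM in the control library.

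Members with Acp names and members with Sfp names are described separately, and the difference between them was not tested. Among the 11 measured Acp genes 1 was higher (9.09%, against 12.8% of all measured genes), 3 were lower (27.3%, against 6.16%) and the median log2 ratio was -0.21. The 19 measured Sfp genes included 7 that were higher (36.8%) and 0 that were lower, with a median of 0.09. Their transcripts were shorter, with a median length of 360 nt against 537.5 nt for the Acp genes. Scaling by total reads, which moves every log2 ratio by -0.26, took the Sfp median below 0 and left the Acp median below 0. As sums, the Acp genes stood at 0.80 of control and the Sfp genes at 1.31. These sums rest on a few genes. The 5 members with the most reads held 54.8% (control) and 52.2% (mutant) of all member reads, and the 10 with the most reads held 83.7% and 80.3%.

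The genes of the sex peptide family moved in opposite directions. *SP* (FBgn0003034, chromosome 3L, 13301635 to 13301922) had 3737 reads (223 CPM) in the control library and 9850 reads (365 CPM) in the mutant library. Its ratio was 1.64 (1.58 to 1.70), which was called higher. *Dup99B* (FBgn0250832, 3R, 29715068 to 29715377) encodes a sex-peptide-like peptide of the ejaculatory duct that can act on the same receptor. It had 17023 reads (1016 CPM) in the control library and 15842 reads (588 CPM) in the mutant library, a ratio of 0.578 (0.566 to 0.591), which was called lower. Within a library, and so without any scaling, there were 0.220 reads of *SP* per read of *Dup99B* in control and 0.622 in the mutant, a 2.83-fold difference (95% interval 2.71 to 2.96, counting error only). *Sfp70A4* lies 4774 bp from *SP* and stayed out of the calls at 0.762 (0.718 to 0.809), from 2006 reads (120 CPM) to 2460 reads (91.3 CPM).

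Ovulin, encoded by *Acp26Aa* (FBgn0002855, 2L, 5892883 to 5893896), stimulates ovulation in the mated female. *Acp26Aa* had 15283 reads (912 CPM) in the control library and 13791 reads (512 CPM) in the mutant library. Its ratio of 0.561 (0.548 to 0.574) was the lowest of the 33. *Acp26Ab* lies 20 bp away on the same strand and did not share this difference. It had 2963 reads (177 CPM) and 5221 reads (194 CPM), a ratio of 1.10 (1.05 to 1.15). Reads of *Acp26Aa* per read of *Acp26Ab* went from 5.16 in control to 2.64 in the mutant, which is 0.512 of control (0.487 to 0.539). *Sfp26Ac*, 7523 bp from *Acp26Ab*, was near equality with 222 reads (13.3 CPM) and 380 reads (14.1 CPM), a ratio of 1.06 (0.899 to 1.26).

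A cluster of 4 Acp genes on chromosome 2R, from 16747834 to 16751495, held several of the most abundant members. All 4 lie on the same strand with gaps of 224, 342 and 440 bp, and all 4 ratios lay below 1. *Acp53Ea* (FBgn0015584) was called lower, with 15352 reads (916 CPM) in control and 15836 reads (587 CPM) in the mutant, a ratio of 0.641 (0.627 to 0.656). Next to it, *Acp53C14b* had 18494 reads (1104 CPM) and 20515 reads (761 CPM), which at 0.689 (0.676 to 0.703) was just short of the limit for a call. *Acp53C14a* was closer to control, with 13767 reads (822 CPM) and 20431 reads (758 CPM) and a ratio of 0.922 (0.903 to 0.943). *Acp53C14c*, the member of the cluster with the fewest reads, had 912 reads (54.4 CPM) and 1343 reads (49.8 CPM), a ratio of 0.915 (0.841 to 0.997). The cluster was thus not uniform. Reads of *Acp53C14a* per read of *Acp53C14b* were 0.744 in control and 0.996 in the mutant, a 1.34-fold difference (1.299 to 1.378). *Sfp53D*, 2719 bp away, was at 0.973 (0.891 to 1.06), with 816 reads (48.7 CPM) and 1278 reads (47.4 CPM).

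Of 3 other members with a known function, none was called. *Acp29AB* encodes a C-type lectin that serves the retention of stored sperm. It had 1245 reads (74.3 CPM) in control and 1800 reads (66.8 CPM) in the mutant, a ratio of 0.899 (0.835 to 0.967). *Acp76A*, which encodes a serine protease inhibitor of the serpin family, had 7460 reads (445 CPM) and 10368 reads (385 CPM), a ratio of 0.864 (0.838 to 0.890). *Est-6* encodes the carboxylesterase of the ejaculatory duct and is also used in other tissues. It had the most reads of all members in the control library, 18523 (1106 CPM), against 22954 (852 CPM) in the mutant library. Its ratio was 0.770 (0.755 to 0.785). These 3 genes therefore stood below control by more than counting error and within the 1.5-fold limit.

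The 2 largest ratios came from genes with hardly any control reads. *Sfp36F* (FBgn0261057, 2L, 18292522 to 18292833) had 2 reads (0.119 CPM) in the control library and 415 reads (15.4 CPM) in the mutant library, a ratio of 129 (35.5 to 1068). Its control level lies below the 0.179 CPM that 3 reads are worth, with a 95% Poisson interval of 0.0145 to 0.431 CPM, so the size of the ratio is poorly fixed. *Sfp96F* (FBgn0261061, 3R, 25830061 to 25830228) had 10 reads (0.597 CPM) and 1074 reads (39.8 CPM), a ratio of 66.8 (36.2 to 139.6). Ratios of at least 50-fold higher were rare in the table and applied to 23 of 11606 measured genes, these 2 members included. Only 1 measured gene was at least 50-fold lower. At least 10-fold higher were 76 genes, with the same 2 members, and 6 genes were at least 10-fold lower. Very large ratios thus lay mostly on the higher side among all measured genes, and these 2 members shared that side. The reason for this was not tested. *Sfp96F* lies among the male-specific *Mst57D* genes, which were well covered and did not share its difference. *Mst57Dc*, 362 bp away, was at 0.689, *Mst57Db*, 491 bp away, at 1.04, and *Mst57Da*, 1346 bp away, at 1.20. Around *Sfp36F*, 6 measured genes within 10000 bp lay between 0.708 and 31.1, the highest being *CG43362*, 1059 bp away, from 1 read to 50 reads.

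A further 6 Sfp and Acp genes were called higher with ample reads in at least 1 library. *Acp98AB* (FBgn0263597, 3R, 27694883 to 27695057) had 2983 reads (178 CPM) in control and 13380 reads (496 CPM) in the mutant, a ratio of 2.79 (2.68 to 2.90). *Sfp79B* had 280 reads (16.7 CPM) and 1238 reads (45.9 CPM), a ratio of 2.75 (2.41 to 3.14). *Sfp26Ad* went from 1432 reads (85.5 CPM) to 5780 reads (214 CPM), a ratio of 2.51 (2.37 to 2.66). These 3 genes and *Sfp23F* were at least 2-fold higher in the mutant library. *Sfp23F* had 99 reads (5.91 CPM) and 338 reads (12.5 CPM), with a ratio of 2.12 (1.69 to 2.68). Nearer to the limit, *Sfp24C1* had 517 reads (30.9 CPM) and 1305 reads (48.4 CPM), a ratio of 1.57 (1.42 to 1.74), and *Sfp93F* had 343 reads (20.5 CPM) and 837 reads (31.1 CPM), a ratio of 1.52 (1.34 to 1.72). *SP*, *Sfp24C1* and *Sfp93F* were no longer called with scaling by total reads, whereas the other 6 higher members kept their call under each of the 7 scalings. TMM counts the mutant library as 1.61 control libraries, the least of the 7 scalings (1.93 with total reads), so every alternative scaling moved ratios down. The 4 lower members therefore could not lose their call by scaling, and that they kept it is no check.

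*Sfp60F* (FBgn0259968, 2R, 25172245 to 25172695) was the most abundant member in the mutant library. It had 16605 reads (991 CPM) in control and 37791 reads (1402 CPM) in the mutant, and its ratio of 1.41 (1.39 to 1.44) lay just inside the limit. Without *Sfp60F* the summed members stood at 0.829 of control (0.824 to 0.835). On the other side, *Acp54A1* (FBgn0083936, 2R, 17133445 to 17133750) completed the lower members, with 3462 reads (207 CPM) and 3574 reads (133 CPM) and a ratio of 0.642 (0.612 to 0.673). *Acp24A4* was just outside the calls at 0.696 (0.670 to 0.723), with 5095 reads (304 CPM) and 5704 reads (212 CPM). It lies 6768 bp from *Sfp24C1*, which was higher, and reads of *Acp24A4* per read of *Sfp24C1* were 9.85 in control and 4.37 in the mutant.

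The remaining members formed a quiet middle, with ratios between 0.794 and 1.14. Below control were *Sfp84E* at 0.794 (0.721 to 0.874, 755 and 964 reads, 45.1 and 35.8 CPM) and *Sfp35C* at 0.801 (0.739 to 0.868, 1083 and 1395 reads, 64.6 and 51.8 CPM). *Sfp51E* was at 0.807 (0.758 to 0.860, 1723 and 2238 reads, 103 and 83.0 CPM) and *Sfp78E* at 0.823 (0.773 to 0.877, 1717 and 2274 reads, 102 and 84.4 CPM). *Sfp77F* was at 0.901 (0.833 to 0.976, 1055 and 1530 reads, 63.0 and 56.8 CPM). All 5 of these intervals lay below equality. The intervals of *Sfp38D* at 0.898 (0.788 to 1.02, 394 and 569 reads, 23.5 and 21.1 CPM), *Sfp24F* at 0.979 (0.910 to 1.05, 1203 and 1894 reads, 71.8 and 70.3 CPM) and *Sfp33A1* at 1.14 (0.998 to 1.31, 326 and 600 reads, 19.5 and 22.3 CPM) included it.

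Compared per length, several members belonged to the most abundant transcripts of the fly in both libraries. Levels per length are reads per kilobase of annotated exon, ranked over all genes within a library. *Dup99B* ranked at 8 in control and 28 in the mutant, *Sfp60F* at 12 and 13, *Acp53Ea* at 16 and 65 and *Acp53C14b* at 19 and 60. *Acp98AB* went the other way, from rank 56 to rank 17, and *SP* from 57 to 40. Among the 50 genes with the highest level per length were 5 members in control and 4 in the mutant, and among the highest 500 were 15 and 16. The order of the members by CPM was nearly kept, with a Spearman correlation of 0.97 across 33 members. Both libraries share the same genes and lengths, and genes are not independent replicates.

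Transcript length, as the median of a gene's annotated transcripts, went together with the ratio. Of the 7 measured members with transcripts of up to 300 nt, 5 were higher (*Sfp96F* at 168 nt, *Acp98AB* at 175 nt, *SP* at 223 nt, *Sfp79B* at 233 nt and *Sfp36F* at 237.5 nt) and 1 was lower. *Dup99B* at 283.5 nt and *Sfp70A4* at 268 nt were the 2 short members below control. The 26 longer members included 4 higher and 3 lower ones and had a median log2 ratio of -0.15. The same order held outside the members. Among 30 other measured protein-coding genes of up to 300 nt, 14 were higher and 2 lower (median log2 ratio 0.67), and among 4717 genes of over 2000 nt 5.05% were higher (median -0.12). Of the 11 members of 400 to 700 nt, 1 was higher and the median was -0.13. Other genes of this length were higher in 29.3% of 871 cases and had a median of 0.24. Of the 8 members of 300 to 400 nt 37.5% were higher (median 0.35), against 38.6% of 88 other genes (0.42). Of the 5 members of 700 to 1000 nt 0 were higher (median -0.16), against 20.3% of 1207 other genes (0.19). Of the 2 members of 1000 to 2000 nt 0 were higher (median -0.29), against 15.1% of 3756 other genes (0.10). Across 33 members the Spearman correlation of log2 ratio and log2 length was -0.47 (Pearson -0.52), and across 10669 other protein-coding genes it was -0.36. The part of transcript length in the ratios of the short members was not tested.

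**Figure D2:**
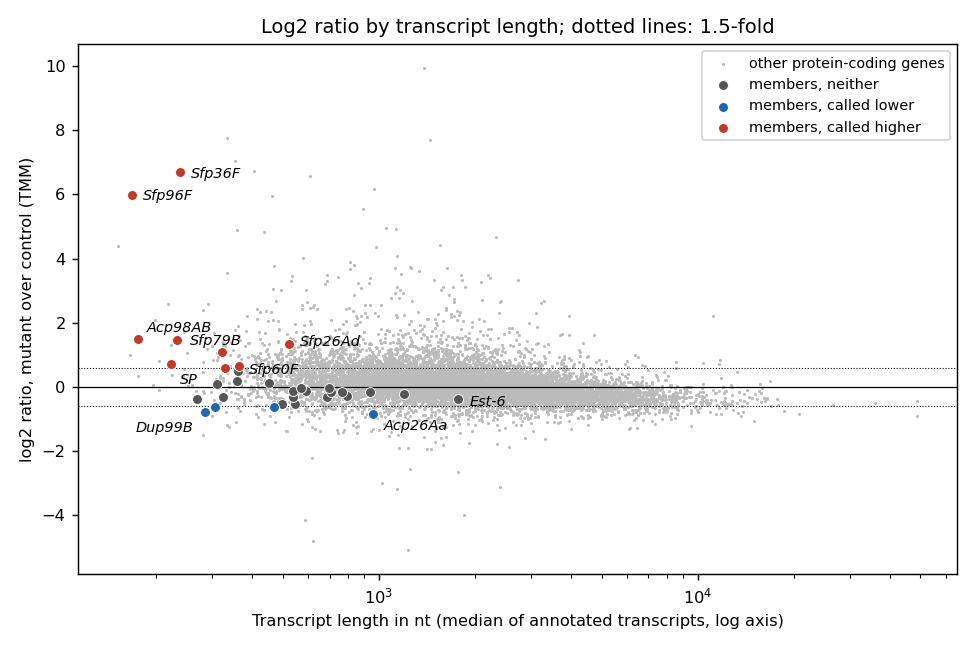
Log2 ratio of mutant over control on the TMM scale against transcript length in nt (log axis) for measured members (large points, coloured by call) and other measured protein-coding genes (small grey points). Dotted lines mark 1.5-fold. The 5 higher members of up to 300 nt sit at the upper left, *Dup99B* is short and lower, and *Acp26Aa* at 958 nt has the lowest ratio of the members.

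The 14 members at 0 in both libraries were *Acp32CD*, *Acp33A*, *Acp36DE*, *Acp62F*, *Acp63F*, *Acp95EF*, *Sfp24Ba*, *Sfp24Bb*, *Sfp24Bc*, *Sfp33A2*, *Sfp33A3*, *Sfp33A4*, *Sfp65A* and *Sfp87B*. They include *Acp36DE*, whose glycoprotein is needed for sperm storage, and *Acp62F*, which encodes a trypsin inhibitor. A share of 29.8% of members at 0 compares with 16.5% of all protein-coding genes and 25.2% of all genes. Every one of the 14 lies wholly inside the span of another protein-coding gene, and 0 of the 33 members with reads do. In 13 of the 14 no exon base is shared with the host, because the member sits in an intron or gap, and in 13 the host lies on the opposite strand only. *Acp95EF* is the one whose exon is covered by an exon of its host *Spase22-23*, and *Sfp87B* is the one on the strand of its host *svp*. Among other protein-coding genes, 1774 of 1801 nested genes were at 0 (98.5%), against 490 of 11926 genes that are not nested (4.11%). Where the host lay on the other strand only, 977 of 984 were at 0. A listed 0 in these 14 members therefore stood with their position and was not read as absence of the transcript.

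**Figure D3:**
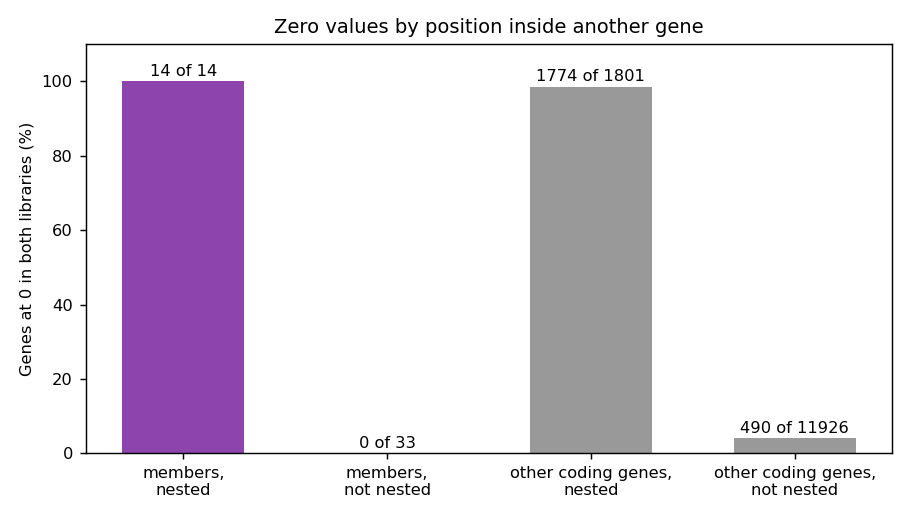
Share of genes at 0 in both libraries (percent) for members and for other protein-coding genes, each split by whether the gene lies wholly inside another protein-coding gene (nested). Numbers over the bars give genes at 0 of genes in the class. All 14 nested members and 1774 of 1801 other nested genes are at 0, and 0 of 33 members that are not nested are.

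The hosts of the members at 0 had reads in both libraries, and 0 of the 10 hosts were called. *Acp36DE* (2L, 18356047 to 18359028) lies in an intron of *Fas3*, a cell adhesion gene with 996 control reads and 1698 mutant reads (log2 ratio 0.08). *Acp62F* (3L, 2739750 to 2740228) lies in *Mrtf*, with 1078 and 1362 reads (-0.35). *Sfp33A2*, *Sfp33A3* and *Sfp33A4* share the host *Pde1c*, with 1234 and 1847 reads (-0.10), and *Sfp24Ba*, *Sfp24Bb* and *Sfp24Bc* share *Drgx*, with 103 and 130 reads (-0.35). The most covered host was *Scsalpha1*, around *Acp63F*, with 5533 and 12541 reads (0.49).

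Members were unevenly spread over the genome. Of the 47, 22 lie on 2L (46.8%, against 19.0% of protein-coding genes), 8 on 2R, 10 on 3L, 7 on 3R and 0 on the X chromosome, which holds 15.6% of protein-coding genes. Of the 8 members on 2R all had reads, with 0 higher and 2 lower. On 2L, 13 had reads, with 4 higher and 1 lower. On chromosome 3, which carries *Taf1*, 7 members of 3L had reads, with 2 higher and 0 lower, and 5 of 3R, with 3 higher and 1 lower. Over all measured genes of the table, 12.8% were higher and 6.16% lower. Shares for the other genes of each arm were not computed, and these small counts are a description only. The part of chromosome position in the ratios was not tested.

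Other genes of the male reproductive tract and genes of the sex peptide network also showed no common direction. Of 38 measured further seminal fluid genes, 3 were higher, 5 were lower and the median log2 ratio was -0.03. Over all measured genes, 12.8% were higher and 6.16% lower. Higher on the log2 scale were *CG16704* (1.40), *CG16713* (1.28) and *CG16712* (0.86), and the lowest were *BG642312* (-0.95), *BG642163* (-0.93) and *CG17097* (-0.84). Their sum stood at 0.759 of control (0.755 to 0.763), beside 0.891 for the members. This sum too rests on a few genes, since *CG17097* alone held 77036 of the 316228 control reads. Of the 12 genes of the sex peptide network, which holds sex peptide on sperm or receives it in the female, 9 were measured. This list thus mixes genes of the male and the female side. Only *frma* was called, higher with a log2 ratio of 1.21, and the receptor gene *SPR*, with 140 and 262 reads, had a log2 ratio of 0.22 (-0.08 to 0.52). The other 3, *hdly*, *lectin-46Ca* and *lectin-46Cb*, were at 0 and nested like the 14 members.

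Genes of the ejaculatory duct and bulb other than *Dup99B* and *Est-6* numbered 6, of which 1 was higher. This was *Anp*, which encodes andropin, an antimicrobial peptide of the ejaculatory duct, with 1931 and 6879 reads and a ratio of 2.21 (log2 ratio 1.15). *PebII*, *PebIII* and *Peb*, which encode proteins of the ejaculatory bulb, were near equality with log2 ratios of -0.03, -0.01 and -0.17. None of 7 further genes used in the gland, most of them regulators (*prd*, *Abd-B*, *dve*, *Hr39*, *EcR*, *dsx* and *bond*), was called. Their log2 ratios ran from -0.36 to 0.16. Among 24 measured testis genes 5 were higher and 0 lower, with a median log2 ratio of 0.06 that fell below 0 with scaling by total reads. For all counts of this paragraph, the shares over all measured genes were 12.8% higher and 6.16% lower. Of the tissues outside the reproductive tract, fat body genes had 5 of 7 higher (median log2 ratio 1.10), gut genes 5 of 9 (1.01) and muscle genes 2 of 7 (0.55), while neuronal genes had 3 of 5 lower (-0.83). The log2 ratios were highest for *Lsp2* (2.63), *Fbp2* (2.18) and *Nplp2* (1.32) in the fat body list. In the gut list they were highest for *Mal-A1* (3.34), *betaTry* (1.34) and *alphaTry* (1.34). The gut list was mixed, with 7 of 9 measured genes above 0 and a lowest log2 ratio of -0.48. The called muscle genes were *fln* (2.25) and *Mlc2* (0.67), and the called neuronal genes were *para* (-1.05), *Rdl* (-0.86) and *brp* (-0.83). Of 8 measured female genes, *Cp15* was higher, with 49 and 123 reads (0.63), and 2 with fewer reads were lower. The part of these tissues in the members' ratios was not tested.

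**Figure D4:**
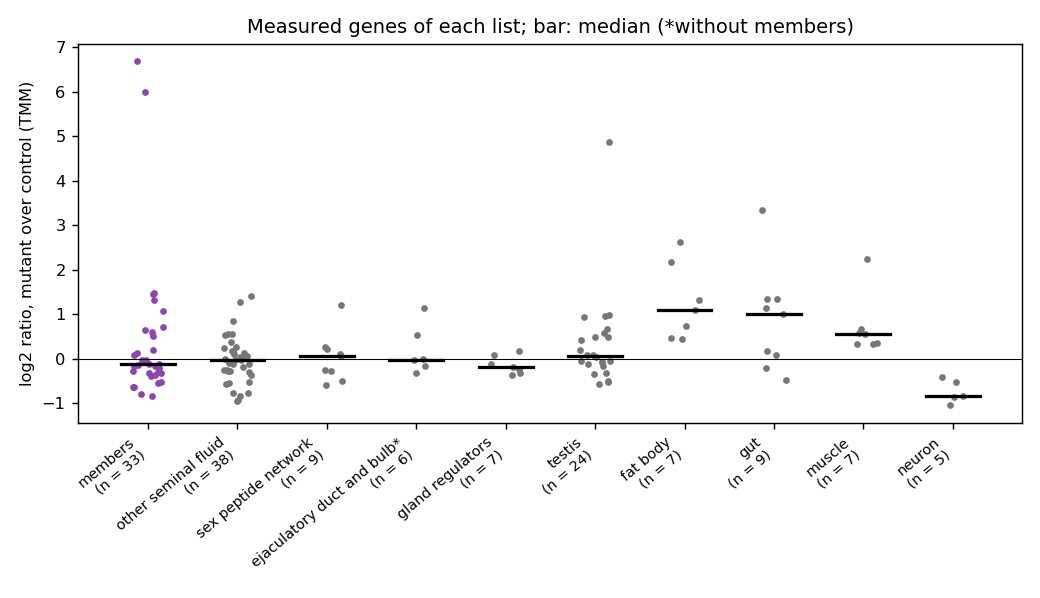
Log2 ratio of mutant over control on the TMM scale for each measured gene (points) of the members and of 9 comparison lists, with the median as a bar and the number of measured genes under each name. The members, at a median of -0.13, the other lists of the male reproductive tract and the sex peptide network scatter around 0. The fat body, gut and muscle medians lie above 0 and the neuron median below 0.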

How the data were processed

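RNA of 10 pooled whole flies per genotype was sequenced by a genomics core on an Illumina HiSeq with a stranded mRNA kit, and the submitters' notes name the build BDGP6. Not given in the sources used here are the aligner, the counting tool with its strand setting, the annotation release and the origin of the factors. The table the authors deposited holds a signal for 17559 genes, namely read counts that were divided by a factor of 0.761 in control and 1.26 in the mutant. After division by the smallest positive value (1.31 and 0.794), 100% of the values were whole reads to 0.001. Raw counts had been assumed in the design, and these recovered reads took their place. A count model could not be fitted, since the spread has 0 residual degrees of freedom with 1 library per genotype.

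Reads were scaled by TMM (edgeR 4.0.16, R 4.3.3) and analysed with Python 3.11.15, numpy 2.4.6, pandas 2.3.3 and scipy 1.17.1. For CPM, control reads were divided by the control total and mutant reads by 1.61 times that total. Log2 ratios used a prior count of 0.5. Ratio intervals are exact conditional binomial (Clopper-Pearson), CPM intervals are exact Poisson, and intervals of reads per read of another gene are Wald intervals on the log scale. Without molecular identifiers, reads are not independent molecules. The depth puts 3 reads at 0.179 CPM in control and 0.111 CPM in the mutant library. The calculations were tested on simulated data. Symbols were matched to Ensembl 115 annotation of BDGP6.54 for 17314 genes, 12888 by current symbol and the others through RefSeq synonyms. This annotation gave positions, lengths and nesting (a span wholly inside that of another protein-coding gene) and may differ from the release the authors used. No other columns held per-sample values.

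The members, comparison lists and rules were chosen with earlier results of these data known, and the lists were written by hand. Every member that reached 50 reads in either library is given with reads, CPM and ratio. *Taf1* is given too, as are up to 3 called genes in each direction from every other list, by ratio and with the same read minimum. *SPR*, the *Peb* genes, *Mst57D* genes, *CG43362*, the hosts and the short genes of the closing section are named outside this rule, after their values were seen. Alternatives were scaling by total reads, DESeq2 (1.42.0) median of ratios, upper quartile, the deposited factors or testis genes at equality, other read and fold limits, a prior count of 2, and sums without the most abundant member. TMM over genes of up to 1000 nt and the leaving out of members of up to 300 nt were added after seeing the data.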

Additional observations from a re-analysis of the deposited data

How the results depend on the processing

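No member changed direction of a call, but the alternatives could not have brought this about. The largest shift by scaling was -0.26 on the log2 scale, too small to carry a 1.5-fold call to the opposite limit. All alternative scalings moved ratios down, so they could remove higher calls and add lower ones only. Against 9 higher and 4 lower members, scaling by total reads gave 6 and 9, a 2-fold limit 6 and 0, no fold limit 11 and 17, and TMM over genes of up to 1000 nt 6 and 6. Without members of up to 300 nt 4 were higher. The median log2 ratio of -0.13 became -0.39 with total reads and -0.28 with TMM over genes of up to 1000 nt. The log2 ratio of the summed members, -0.17, became -0.43 with total reads, -0.32 with TMM over genes of up to 1000 nt, -0.23 with testis genes at equality, -0.21 with the deposited factors, -0.27 without *Sfp60F* and -0.22 without members of up to 300 nt. Total reads moves all genes by -0.26, and of all called genes 26.8% were then higher against 67.5% with TMM (42.7% with TMM over genes of up to 1000 nt, 61.1% with the deposited factors, 58.4% with testis genes at equality). The calls lost with total reads and with TMM over genes of up to 1000 nt were *SP*, *Sfp24C1* and *Sfp93F*, and *Sfp93F* was also lost with the deposited factors and with testis genes at equality. Median of ratios, upper quartile, other read limits and a prior count of 2 left the counts at 9 and 4 or the median at -0.13. Read limits of 1, 10 and 50 are no check, since all 33 measured members had at least 50 reads in the larger library. The deposited factors gave 8 and 4 calls and testis genes at equality 8 and 5. The 14 members at 0 are all protein-coding genes, so limiting the count to such genes could not change it. No paired analysis was possible because each genotype has 1 library, and for the same reason no library could be left out. Depth limits *Sfp36F* most, with 2 control reads.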

Other observations

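Short protein-coding genes outside the male reproductive tract also differed between the libraries. The metallothionein genes *MtnC* and *MtnD*, whose small proteins bind metals, had 377 and 56 reads in the control library and 2335 and 248 in the mutant library, ratios of 3.85 and 2.75. *RpL39*, which encodes a small protein of the large ribosomal subunit, was at 2.28 with 4013 and 14693 reads. Short transcripts were not uniformly higher, since *CG45080* (280 nt) was at 0.355 with 6758 and 3864 reads. Within the male reproductive tract, the seminal fluid gene *Mst57Db* (195 nt) was at 1.04 with 26582 and 44357 reads.

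Of the sperm chromatin and sperm tail genes on the testis list, the 5 called ones all belong to the *Mst84D* and *Mst87F* group. *Mst84Da* went from 2 to 118 reads (log2 ratio 4.88), *Mst84Dc* from 3006 to 9484 (0.97), *Mst87F* from 5911 to 18623 (0.97), *Mst84Db* from 4620 to 14206 (0.93) and *Mst84Dd* from 3043 to 7782 (0.67). Their transcripts are 358 to 480.5 nt long. Like *Sfp36F*, *Mst84Da* had 2 reads in the control library. The other *Mst84D* genes were well covered, with 3006 to 4620 control reads.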
